A study of Mus musculus with 6 samples.

Results

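Nr4a1, Nr4a2 and Nr4a3 are the 3 genes of the NR4A family of orphan nuclear receptors, also called Nur77, Nurr1 and NOR-1. They were followed on expression arrays of the mouse left ventricle with and without the kinase Akt2. The family was chosen from earlier results of these arrays, in which Nr4a1 differed between the genotypes, so its genotype differences are given as a description with no test. All probe sets that the platform annotation assigns to exactly 1 of these genes were taken, which gave 10 probe sets of the 45101 on the array: 1 of Nr4a1, 6 of Nr4a2 and 3 of Nr4a3. No probe set named a member together with another gene.

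The study compared left ventricles of akt2-/- mice, which carry a targeted disruption of the akt2 gene and were backcrossed to C57BL/6 more than 7 times, with wild type C57BL/6 left ventricles. All mice were males aged 12 to 16 weeks, no treatment is labelled, and there were 3 samples of each genotype, each on its own array. The labels do not say whether each sample is 1 animal, so errors measure the spread between these samples, which may be technical. The disruption is not described as limited to the heart, and values come from whole tissue, in which fewer cells of a type and less RNA per cell cannot be told apart.

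NR4A receptors have a ligand pocket filled by their own side chains and act largely through how much of them is made. Cyclic AMP, calcium and adrenergic or insulin signals switch on their genes within minutes, through CREB and MEF2 at their promoters, which places them among the immediate early genes. The proteins bind DNA as monomers at the NBRE site or as dimers, Nr4a1 and Nr4a2 also with the retinoid X receptors, and in skeletal muscle they raise genes of glucose and fat use. Akt is known to phosphorylate the Nr4a1 protein in its DNA-binding region, a step that transcript arrays do not measure.

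The bases just upstream of the start sites are shown because CREB binds there through the CRE, whose core letters are TGACG, or CGTCA on the other strand. The sequences are those of RefSeq for build GRCm38.p6, 5′ to 3′ on the strand of the gene, and capitals mark the CRE core. For Nr4a1 the 250 bases at chr15:101266596-101266845 on the plus strand lie before the start site used and inside the span of longer RefSeq transcripts. For Nr4a2 the 250 bases at chr2:57124004-57124253 on the minus strand lie outside the gene. For Nr4a3 another RefSeq transcript begins within the window, at chr4:48045078, so only 30 bases around the closest pair of cores are shown. These are chr4:48045084-48045113 on the plus strand. They lie before the start site used but after the start of that other transcript, inside its span.
Nr4a1: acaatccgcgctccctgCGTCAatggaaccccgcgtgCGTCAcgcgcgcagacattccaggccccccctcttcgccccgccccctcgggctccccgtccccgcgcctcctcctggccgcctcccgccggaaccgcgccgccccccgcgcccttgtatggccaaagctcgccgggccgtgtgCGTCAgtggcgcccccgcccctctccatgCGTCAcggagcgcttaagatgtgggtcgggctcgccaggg
Nr4a2: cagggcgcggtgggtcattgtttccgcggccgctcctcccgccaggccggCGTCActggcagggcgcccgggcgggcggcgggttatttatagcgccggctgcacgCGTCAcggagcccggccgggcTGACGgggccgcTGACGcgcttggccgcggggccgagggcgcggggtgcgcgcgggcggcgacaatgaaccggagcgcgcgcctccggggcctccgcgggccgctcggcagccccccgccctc
Nr4a3: tcccatgtCGTCAcatTGACGtctcgcatt

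Each of the 3 windows of 250 bases held 4 CRE cores, counted on both strands. Among all 32851 promoter windows of that length in the table, 17.8% held at least 1 core and 0.137% held at least 4. All 4 cores of Nr4a1 were part of the letters TGCGTCA, the reverse complement of TGACGCA, which 1.75% of all windows held on either strand. Those cores began 233, 213, 69 and 40 bases before the start site. The full palindrome TGACGTCA, found in 1.55% of all windows, was in none of the 3. A MEF2 site was in the Nr4a2 window, as in 2.92% of all windows, and the NBRE, AAAGGTCA, was in none of the 3, against 1.34%. Of the windows of other immediate early genes, 19 of 30 held at least 1 core and 0 held 4. These letters are a description of the windows and show no binding.

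The arrays fell into 2 sets, although the labels name no batch. Array set A is replicate 1 of each genotype, and array set B is replicates 2 and 3 of each. Median signals in set A were 134.3 and 167.2, against 88.4 to 91.2. The poly-A spike-in controls had medians of 54.2 and 57 there, against 456.9 to 825.8. The 18S ribosomal controls had 57275 and 82330, against 152.7 to 446.7. Differences of the Nr4a probe sets between the genotypes are therefore also given within each set. Akt2 had signals of 2363, 2561 and 2505 in wild type replicates 1, 2 and 3 and of 477.8, 394.5 and 255.4 in the knockouts, so the genotype labels held in every array. Ventricular markers such as Myh6 and Myl2 were measured in all arrays, with all 10 of the list above the filter.

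Nr4a1 was higher in all 3 knockout arrays than in all 3 wild type arrays. Its 1 probe set, 1416505_at, had a MAS5 signal of 2368, 1239 and 822.1 in wild type replicates 1, 2 and 3, and of 6182, 2473 and 2452 in knockout replicates 1, 2 and 3. The groups do not overlap, but wild type 1 lies close below knockouts 2 and 3. The means were 1476 ± 799.7 (SD, n = 3) in the wild type and 3702 ± 2148 (SD, n = 3) in the knockout.

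On the scale log2(signal + 21.7) the Nr4a1 difference was 1.30 (SE 0.50), a 2.47-fold higher level in the knockout. It was 1.38 in set A and 1.27 in set B. Without knockout 1, which leaves the sets unequal between the genotypes, it was 0.86. By replicate number the ratio of the deposited signals was 2.61, 2.00 and 2.98. With the array set as a block the SE of the same difference was 0.18.

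Nr4a2, the family member best known for dopamine neurons, gave different answers by probe set. Probe set 1455034_at had signals of 35.6, 73.0 and 68.7 in wild type replicates 1 to 3 and of 377.8, 161.3 and 139.9 in the knockouts. Its groups do not overlap, with a log2 difference of 1.53 (SE 0.39), 2.80 in set A and 0.89 in set B. Probe set 1450750_a_at had 70.9, 73.6 and 80.4 in the wild type against 301.9, 145.6 and 110.7 (log2 1.00, SE 0.34; 1.81 in set A and 0.59 in set B). The wild type arrays were close together here, and all knockout arrays were above them.

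The brightest Nr4a2 probe set on the log2 scale, 1447863_s_at, had 162.2, 182.7 and 32.2 in the wild type against 876.8, 284.9 and 229.0 in the knockout. This difference was 1.70 (SE 0.66), 2.29 in set A and 1.40 in set B, and wild type 3 stood far below the other wild type arrays. Without wild type 3 it was 1.08, and without knockout 1 it was 1.13. Probe set 1450749_a_at had 264.8, 180.0 and 116.7 against 324.2, 190.2 and 125.5, with overlapping groups and a log2 difference of 0.14 (SE 0.39; 0.27 in set A and 0.08 in set B). By replicate number the knockout was above the wild type in all 3 pairs, by 0.27, 0.07 and 0.09, and with the array set as a block the SE was 0.21. It carries the same reference accession in the annotation as 1450750_a_at. The mean log2 value of all 6 Nr4a2 probe sets differed by 0.80 between the genotypes.

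The other 2 Nr4a2 probe sets, 1433422_at and 1433423_at, were dim and did not pass the filter on low signals. Their wild type signals ran from 46.1 to 80.5 and from 3.2 to 14.0, and their knockout signals from 58.3 to 111.9 and from 7.0 to 22.2. In both the genotypes overlap, with log2 differences of 0.19 (SE 0.31) and 0.24 (SE 0.28). Both turned between the sets, from -0.22 in set A to 0.39 in set B and from -0.18 to 0.45.

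Nr4a3, a receptor that exercise and adrenergic signals induce in muscle, overlapped between the genotypes in every probe set. Its brightest, 1438796_at, had 17.3, 406.9 and 234.0 in wild type replicates 1, 2 and 3 and 384.3, 486.8 and 274.0 in the knockouts. Wild type 1 alone was low. The log2 difference was 1.28 (SE 0.84) over all arrays, 3.38 in set A and 0.23 in set B. Without wild type 1 it was 0.25, and without wild type 2 it was 1.98.

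Neither of the other Nr4a3 probe sets passed the filter on low signals. Probe set 1421080_at had 117.3, 152.0 and 41.7 against 201.3, 46.6 and 35.6, a log2 difference of -0.27 (SE 0.62; 0.68 in set A and -0.75 in set B), and it was the only one of the 10 members with a lower knockout mean. Probe set 1421079_at had 12.8, 11.9 and 40.3 against 30.8, 54.7 and 45.8 (0.64, SE 0.33; 0.61 in set A and 0.65 in set B).

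**Figure D1:**
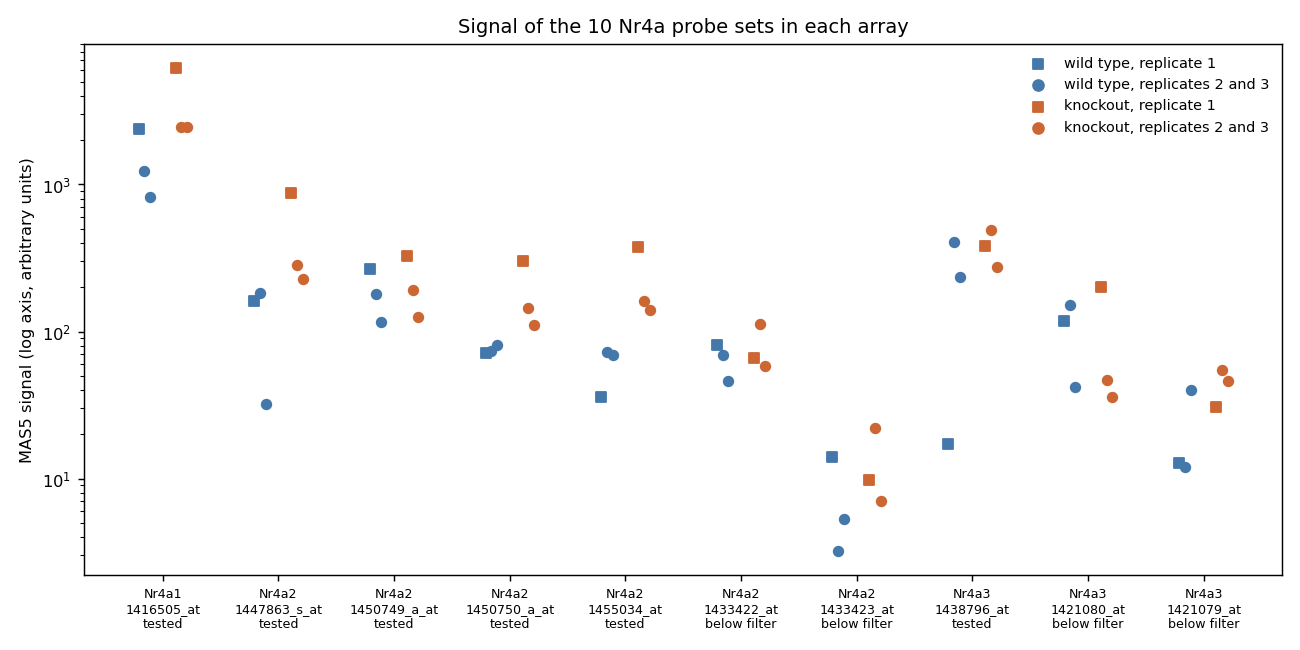
MAS5 signal (log axis) of each of the 10 Nr4a probe sets in each array, wild type in blue and knockout in orange, squares for replicate 1 (array set A) and circles for replicates 2 and 3 (set B). Nr4a1 and the Nr4a2 probe sets 1447863_s_at, 1450750_a_at and 1455034_at have all knockout arrays above all wild type arrays, and the other 6 overlap.

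Of the 10 members, 4 had all knockout arrays above all wild type arrays: Nr4a1 and 3 probe sets of Nr4a2. None had them all below. Over all 45037 probe sets other than controls, 3.61% had all knockout arrays above. Within each array set without overlap, 5 of the 10 members were higher in the knockout, against 8.67% of all probe sets. The members were chosen with this contrast known, so nothing is read from these shares. Of the 10, 6 passed the filter on low signals: Nr4a1, 4 probe sets of Nr4a2 and 1 of Nr4a3. The Nr4a2 probe sets 1450750_a_at and 1455034_at passed through their knockout arrays, with wild type means of 6.59 and 6.30 below the filter of 6.87 on the log2 scale. Knockout replicate 1 was the highest array in 6 of the 10 members.

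**Figure D2:**
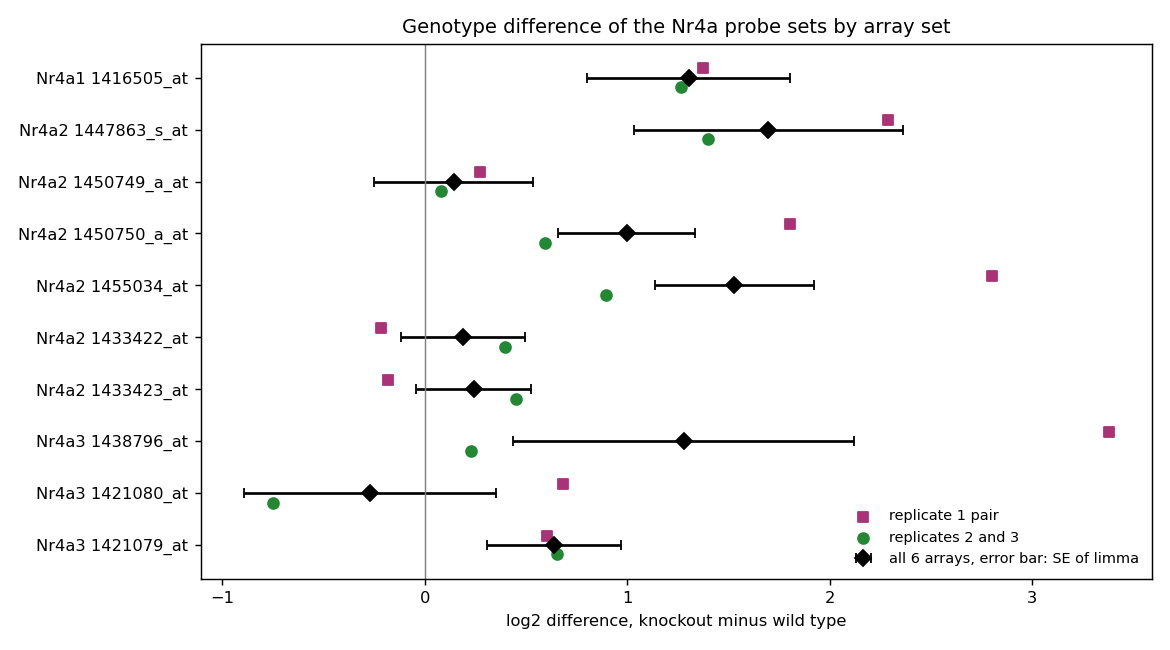
Log2 difference between knockout and wild type of each Nr4a probe set: over all 6 arrays (diamonds, with the SE of limma), in array set A, the replicate 1 arrays (squares), and in set B, replicates 2 and 3 (circles). Nr4a1 has 1.38 and 1.27 in the array sets, while Nr4a3 1438796_at has 3.38 and 0.23.

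The difference between the array sets was not part of the choice of members and was tested in the limma model that also holds genotype. Nr4a1 was higher in set A by 1.27 on the log2 scale (SE 0.19, limma adjusted p = 0.0098). Nr4a2 1450749_a_at was higher there by 0.87 (SE 0.23, limma adjusted p = 0.034). The other 4 tested members did not pass, with limma adjusted p-values from 0.12 to 0.64. Among all tested probe sets 33.1% passed in this comparison, 20% of them all as higher, so 2 of 6 is near the background.

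Between Nr4a1 and Nr4a2 1447863_s_at the values over the 6 arrays had r = 0.93, and 0.93 after the mean of each array set was subtracted. With the other tested Nr4a2 probe sets Nr4a1 had r from 0.73 to 0.83. With Nr4a3 1438796_at it had 0.04, and 0.68 after subtraction. Probe sets 1450750_a_at and 1455034_at of Nr4a2 had 0.96 with each other. These correlations are across 6 arrays that share their scaling, the array sets and the genotype contrast by which the family was chosen. Subtracting the set means leaves the genotype difference in, so the correlations are only a description.

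Among 11074 other tested genes, the 5 most like Nr4a1 over the 6 arrays were Chd7, a chromatin remodeller (r = 0.996), Gpc4 (0.990), Amotl2 (0.990), Zfp612 (0.983) and Tmem9 (0.982). After subtraction of the set means they were Pxmp2 (0.999), Chd7 (0.996), Pacs1 (0.995), Dcp1a (0.994) and Ciart (0.993), so Chd7 alone was in both lists of 5. Before subtraction Pxmp2 had r = -0.23, Ciart -0.49, Dcp1a 0.47 and Pacs1 0.85. Over 0.9 were 187 genes before and 310 after subtraction. The genotype difference was in the values both times, so likeness to Nr4a1 also reflects that difference. Of the 23 other immediate early genes, 2 were among the 187, Ier2 (0.96) and Fosl2 (0.92), while Maff had -0.91 and Ier3 -0.89, and the median over the list was 0.17. Their own differences were smaller than that of Nr4a1: Chd7 had a log2 difference of 0.29, Ier2 of 0.32 and Fosl2 of 0.44.

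For Nr4a2 1447863_s_at the 5 most alike genes were Myo18a (0.991), Clk1 (0.982), Dhcr7 (0.982), Dusp10 (0.980) and Ccdc22 (0.971). After subtraction they were Trim35 (0.997), Luc7l2 (0.994), Ier2 (0.994), Myo18a (0.993) and Sfpq (0.993). For Nr4a3 1438796_at, whose order is set by the low wild type 1, they were Naa30 (0.996), Sfrp1 (0.995), Enoph1 (0.992), Fam135a (0.992) and Sumf1 (0.991). After subtraction they were Dpysl4 (0.999), Klf3 (0.998), Sf1 (0.998), Sfrp1 (0.997) and Nkrf (0.996).

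Of the other immediate early genes none passed in the genotype comparison. Of 23 tested, 16 had a higher and 7 a lower knockout mean, with a median log2 difference of 0.13 against 0.01 over all 11075 tested genes, of which 53.3% had a higher mean. The share that passed at an adjusted p of 0.05 in limma was 0% of all genes and of all probe sets. At an unadjusted p under 0.05, 0 were higher and 1 lower, against 0.966% and 1.2% of all genes. With the array set as a block they were 1 and 3, against 441 and 480 of all 11075 genes. In set A 18 of the 23 were higher, against 51.3% of all genes, with a median of 0.48. In set B only 8 were higher, against 50.7%, with a median of -0.10. Higher in both array sets were 7 of 23, against 26% of all genes, and 11 were higher in set A and lower in set B, against 25.3%.

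Fos, the partner of Jun in AP-1, had signals of 443.4, 354.6 and 785.7 in wild type replicates 1, 2 and 3 and of 2309, 310.1 and 269.2 in the knockouts. Knockout 1 was the highest array and wild type 3 the next, and Fos had a log2 difference of 2.33 in set A and of -0.83 in set B. Egr1, a zinc finger factor, had 0.93 and -0.20, and Dusp1, a phosphatase that ends MAP kinase signals, 0.91 and -0.01. Atf3, a stress-induced CREB relative, had 1.01 and 0.11.

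Jun itself had a log2 difference of 0.08 in set A and 0.32 in set B. By unadjusted p the leading genes were Egr3 (log2 -0.78, SE 0.29), Fosl2 (0.44, SE 0.22), Csrnp1 (0.77, SE 0.39) and Ier2 (0.32, SE 0.23). Each had a limma adjusted p of 1. The Csrnp1 difference was 1.85 in set A and 0.22 in set B, and its wild type 1 signal of 109.1 stood below 348.1 and 214.4. Fosl2 had 593.4, 595.9 and 462.1 in the wild type against 963.8, 726.9 and 599.8. Its groups do not overlap, and it was the 1 gene of this list with all knockout arrays above, against 3.9% of all genes. A second Egr3 probe set, below the filter, went the other way (0.49).

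**Figure D3:**
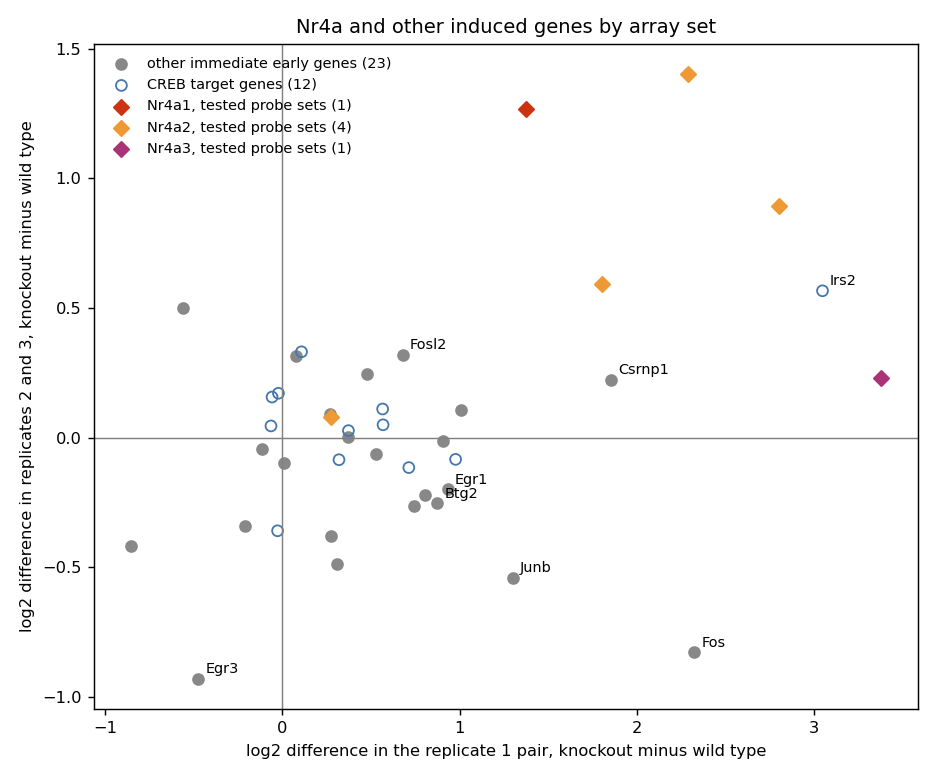
Log2 difference between knockout and wild type in array set A, the replicate 1 arrays (x axis), and in set B, replicates 2 and 3 (y axis), for the 6 tested Nr4a probe sets (diamonds), 23 other immediate early genes (grey) and 12 CREB targets (open circles). Nr4a1 lies at 1.38 and 1.27, while Fos lies at 2.33 and -0.83.

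Targets of cyclic AMP and CREB outside these families had a higher knockout mean in 11 of 12 tested genes, against 53.3% of all genes. The median log2 difference was 0.15, and none passed. Medians were 0.35 in set A and 0.05 in set B. In each set 8 of the 12 were higher, against 51.3% and 50.7% of all genes. Only 5 of the 12 were higher in both sets, against 26%. Irs2, the insulin receptor substrate that CREB induces in liver and islets, had 43.2, 103.7 and 66.5 in the wild type against 515.7, 125.4 and 143.1. Its groups do not overlap, and the log2 difference of 1.39 (SE 0.52) had a limma adjusted p of 1. Irs2 was the 1 gene of these 12 with all knockout arrays above, against 3.9% of all genes. As in Nr4a2 1455034_at, knockout 1 was far above knockouts 2 and 3.

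Crem, which encodes the feedback repressor ICER, had a log2 difference of 0.08 (SE 0.24) and the clock gene Per1 of 0.16 (SE 0.24). Bdnf (-0.25), Pde4b (0.26) and Sik1 (0.22), the next genes by unadjusted p, did not pass either.

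Of the regulators that act on the NR4A genes none passed: 17 of 21 tested had a higher knockout mean, against 53.3% of all genes. The median log2 difference was 0.08, and 0 had an unadjusted p under 0.05 in limma, against 0.966% higher and 1.2% lower of all genes. Creb1 had 0.07 (SE 0.41), and its other tested probe sets ran from -0.45 to 0.07. Mef2a had 0.07 (SE 0.16), Mef2c 0.04 (SE 0.18) and Mef2d 0.18 (SE 0.18). Other tested probe sets ran from 0.06 to 0.22 for Mef2a and from -0.04 to 0.20 for Mef2c. For Mef2d they gave -0.18 and -0.04, so its direction is uncertain. Leading by unadjusted p were Camk2g, a calcium/calmodulin kinase (0.27), Hdac5, which represses MEF2 (0.24), Mef2d and Crtc2, a CREB coactivator (0.61), whose wild type 1 signal of 11.5 stood below 143.7 and 178.4.

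Among partners and kinases of the NR4A proteins, Akt2 itself was lowest, with a log2 difference of -2.69 (SE 0.24). Adjusted over all genes, its limma p was 0.064 and so missed the threshold of 0.05, and it was 0.096 with the array set as a block, a fit in which 0.00903% of genes and none of these 13 passed. With the block and a trended, robust variance, in which 0.0451% of genes passed, Akt2 fell (limma adjusted p = 0.00085). Akt1 had 2651, 2665 and 2718 in the wild type against 2287, 2256 and 2308, all knockout arrays below, and a log2 difference of -0.23 (SE 0.14, limma adjusted p = 1). In this list 2 of 13 genes, Akt1 and Akt2, had all knockout arrays below, against 3.56% of all genes. Of the 13, 1, Bcl2 by its brightest probe set, had them all above, against 3.9%.

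The dimer partners did not pass: Rxra had a log2 difference of -0.12 (SE 0.25), Rxrb of 0.18 (SE 0.17) and Rxrg of -0.03 (SE 0.15). A second tested Rxra probe set had 0.07, with 1.07 in set A and -0.42 in set B. Bcl2, the survival protein that binds Nr4a1 at mitochondria, had 0.61 (SE 0.26) by its brightest probe set. Its other tested probe sets gave -0.87 and -0.88, each with all knockout arrays below, so its direction is uncertain.

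Genes reported to follow Nr4a1 or Nr4a3 in skeletal muscle went both ways. Of 15 tested, 9 were higher, against 53.3% of all genes, and 6 lower, with a median log2 difference of 0.03. None had an unadjusted p under 0.05 in limma, against 0.966% higher and 1.2% lower of all genes. Slc2a4, the insulin-responsive glucose transporter, had a log2 difference of 0.24 (SE 0.19), Lpin1, a phosphatidate phosphatase, 0.20 (SE 0.18) and Fbp2, muscle fructose bisphosphatase, 0.16 (SE 0.17). Ucp3, a mitochondrial carrier, had -0.37 (SE 0.22). The median was -0.11 in set A and 0.15 in set B.

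Other nuclear receptors were also without a call. Of 28 tested, 15 were higher, against 53.3% of all genes, with a median log2 difference of 0.07. Their differences by rule were Nr1h3 (0.39), Esrrb (0.32), Rara (-0.44) and Nr0b2 (0.21), each with a limma adjusted p of 1. Of these 28, 1 had all knockout arrays above, which is near the 3.9% of all genes. It was Nr0b2, with 755.8, 735.9 and 726.5 against 764.2, 923.2 and 888.7.

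Of 9 heat shock chaperones and cochaperones 7 had a higher knockout mean, against 53.3% of all genes. The median log2 difference was 0.18, and none passed. The median was -0.13 in set A, where 4 of 9 were higher, and 0.16 in set B. Dnajb1, a cochaperone of Hsp70, had 1476, 2157 and 1598 in the wild type against 2191, 3834 and 2591 in the knockout (log2 0.69, SE 0.26, limma adjusted p = 1). It was the 1 gene of these 9 with all knockout arrays above, against 3.9% of all genes. Hspa1b had 302.1, 7295 and 4000 against 2697, 25764 and 3060, a spread within each genotype wider than the difference between them. Hspa1a, its near-identical neighbour, had 1.08 (SE 1.24), and Hsph1 0.30 (SE 0.50).

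**Figure D4:**
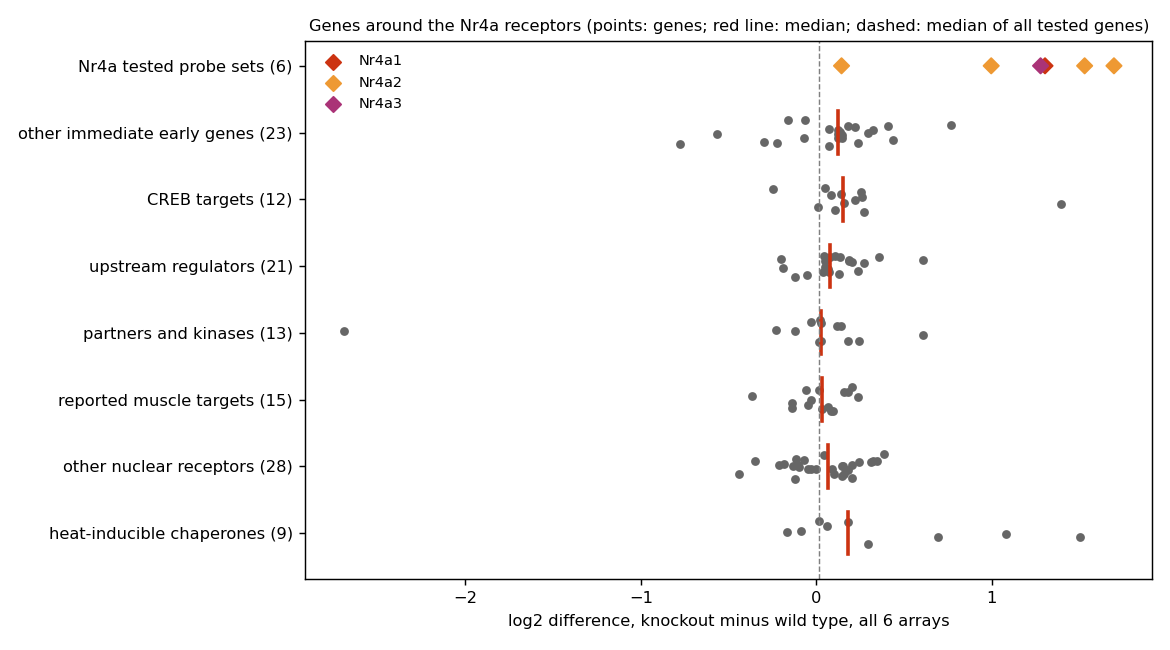
Log2 difference between knockout and wild type over all 6 arrays for the tested Nr4a probe sets and for the genes of 7 related lists (points), with each list's median (red line) and the median of all tested genes (dashed). Of the 6 Nr4a probe sets, chosen with this contrast known, 5 lie between 1.00 and 1.70; the medians of the lists, which are not comparable with such single values, lie between 0.03 and 0.18.

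Marker lists of 13 cell types were set beside these values, and the sums of 2 did not overlap between the genotypes. Of single tested genes, 3.56% had all knockout arrays below and 3.9% all above. No such share was made for sums, so nothing is read from this count. The summed signal of 12 endothelial markers was 31192 to 32394 in the wild type and 26102 to 29129 in the knockout, without overlap. Aqp1 alone made up 11465 to 14196 of it in the wild type and 9527 to 10848 in the knockout. Of the 12 gene means 11 were lower, with a median log2 difference of -0.16, against 5174 lower of all 11075 tested genes. The summed signal of 14 macrophage markers overlapped, 21599 to 33299 against 16201 to 32338, with 13 of 14 lower and a median of -0.18. That of 7 mast cell markers was 523.5 to 905 against 313 to 405.8, with 2 tested genes: Cpa3, a mast cell protease, had a log2 difference of -1.47 (SE 0.26, limma adjusted p = 1) and Kit of -0.01 (SE 0.27). The sums of the other 10 lists overlapped as well. Ventricular myocyte markers summed to 405780 to 1212000 against 490530 to 755870, with medians of -0.62 in set A and 0.16 in set B. Medians over all arrays were -0.07 for ventricular myocytes, 0.34 for atrial myocytes, 0.09 for fibroblasts and 0.03 for smooth muscle and pericytes. The lists for lymphocytes, neutrophils, red cells, adipocytes, Schwann cells and neurons, and skeletal muscle had at most 3 tested genes each. No marker gene of these lists passed in limma, and their part in the NR4A values was not tested.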

How the data were processed

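The authors deposited 1 linear MAS5 intensity per probe set and array, and per the submitters' processing notes MAS5 made them. For its version and settings nothing was stated in the labels used. The trimmed mean (2% cut at each end) was 500 on every array, so each array had been scaled by 1 factor, which was kept. The 64 control probe sets stayed out of tests. Values were put on log2(signal + 21.7), where 21.7 is the 20th percentile, so fold changes of dim genes are understated. The 22519 probe sets with a mean log2 at or above the median, 6.87, were fitted with limma 3.58.1 (R 4.3.3, lmFit and eBayes, no covariate, Benjamini-Hochberg, threshold 0.05). SEs of members below the filter come from a fit of all probe sets. Gene-level tests used, for 11075 genes, the probe set with the highest mean log2 value. Fits were tested on simulated data.

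Of all probe sets, 34945 had 1 gene symbol, 932 several and 9160 are unnamed here. Members, 7 related lists and 13 marker lists were chosen with earlier results of these data known. Of each related list up to 4 genes by unadjusted p were named, with a fixed set of regulators and the 5 genes most like each member. Promoter windows came from a RefSeq table holding all 3 members; motifs were chosen after the members. After genotype means were subtracted, arrays sharing a replicate number correlated at 0.61, 0.45 and 0.39, every pair above 0.1, which meets the criterion for pairs; the number may stand for the array sets. The fit without the block was kept for all SEs and p-values not said to be blocked. Its error also holds the difference between the array sets, so its SEs are wide for genes that differ between the sets. Alternatives were other pseudocounts, filters and scalings, both blocks, another variance estimate, averaging a gene's probe sets and leaving out arrays.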

Additional observations from a re-analysis of the deposited data

How the results depend on the processing

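Over the alternatives the log2 differences of Nr4a1, Nr4a2 and Nr4a3 ran from 0.86 to 1.71, 0.80 to 2.05, and 0.23 to 1.98. They are of the brightest probe set in all alternatives but the averaging of a gene's probe sets, which gave the Nr4a2 value of 0.80. The direction was known when the genes were chosen. In this balanced design blocks and variance settings cannot move the differences. The Nr4a3 value was 0.23 in replicates 2 and 3 alone and 0.55 as the mean of its probe sets. Leaving out each array in turn gave 0.86 (without knockout 1) to 1.71 for Nr4a1, 1.08 to 2.05 for Nr4a2 and 0.25 (without wild type 1) to 1.98 for Nr4a3, and these fits mix in the difference between the array sets. With the replicate block the differences were 1.30, 1.70 and 1.28 as before, 0 probe sets passed and 1267 had an unadjusted p under 0.05, against 453 without the block. Limma called 0 of 22519 probe sets in the planned fit, 1 with the array set block and 13 with that block and a trended, robust variance; leaving out arrays gave 0 to 0. Of the related lists it called 0 genes, and 1, Akt2, with the stricter filter and with the block and robust variance. Scaling arrays to 1 median moved the median of all tested genes from 0.01 to 0.12. The number of arrays and the dimness of 4 of the 10 members limit precision.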
